A study of Mus musculus with 2 samples.

Results

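The models described here are transcript models that hold the 3' part of a longer transcript and lack its 5' exons. In the classification of TALON, a program that assigns each long read to an annotated or a new transcript model, they are incomplete splice matches of the suffix kind: every splice junction of the model is found, in unbroken order up to the last, in a longer model. All suffix models assigned to an annotated mouse gene were taken. They numbered 18475 of 85714 models in replicate 1 and 17805 of 92049 in replicate 2. Both libraries came from gastrocnemius, a calf muscle, of female B6CASTF1/J mice aged 2 months, a cross of the C57BL/6J and CAST/EiJ strains, with no treatment named. Replicate 1 is animal 3 and replicate 2 is animal 4 by number, although both carry the same donor identifier. Each library was made from 2 µg of total RNA, and there is 1 group, so every difference below is between 2 libraries and not between conditions.

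A suffix model can arise in several known ways. A cell can start transcription at an inner promoter, RNA can break, and reverse transcription from the poly(A) tail can stop before it reaches the cap, so that only the 3' end is read. A single read cannot tell these apart, and their parts in these models were not tested. Muscle uses inner promoters in well-described genes, among them Myl1, whose fast alkali light chains start from separate first exons, and the very long transcripts of its sarcomere genes are hard to copy in full.

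Of the 1146 suffix chains whose start recurred in both libraries, 33 (2.88%) began within 50 bases of a transcript start in RefSeq, and 29 of the 33 were also within 50 bases of a start in GENCODE M21, the annotation used here as reference. The 4 starts below, picked from the 33 after their values had been seen, are shown first because the positions around them can be read from RefSeq. Of these, Pfkm is the one far from a GENCODE start of its gene, while Prkab2 and Asb4 lay on such a start and Mef2d 6 bases from one. The windows run from 250 bases before to 50 bases after the RefSeq start in build GRCm38.p6. Capitals begin at the first base of the recurring suffix model in these libraries. They are chr15:98111810-98112109 on the plus strand for Pfkm, chr3:88142122-88142421 on the plus strand for Mef2d, chr3:97657962-97658261 on the plus strand for Prkab2 and chr6:5390160-5390459 on the plus strand for Asb4.
Pfkm: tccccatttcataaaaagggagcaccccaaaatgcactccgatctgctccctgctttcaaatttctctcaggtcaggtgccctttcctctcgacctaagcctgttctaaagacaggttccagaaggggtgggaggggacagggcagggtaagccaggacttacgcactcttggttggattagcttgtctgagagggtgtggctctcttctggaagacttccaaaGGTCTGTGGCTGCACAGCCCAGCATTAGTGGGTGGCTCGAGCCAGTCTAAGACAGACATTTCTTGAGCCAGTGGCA
Mef2d: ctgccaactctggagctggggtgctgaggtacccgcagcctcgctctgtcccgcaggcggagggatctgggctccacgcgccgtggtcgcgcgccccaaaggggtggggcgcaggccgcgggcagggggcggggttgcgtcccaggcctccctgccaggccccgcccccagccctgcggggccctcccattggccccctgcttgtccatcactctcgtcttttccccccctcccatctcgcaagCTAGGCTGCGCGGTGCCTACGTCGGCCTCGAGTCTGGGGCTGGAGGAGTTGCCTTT
Prkab2: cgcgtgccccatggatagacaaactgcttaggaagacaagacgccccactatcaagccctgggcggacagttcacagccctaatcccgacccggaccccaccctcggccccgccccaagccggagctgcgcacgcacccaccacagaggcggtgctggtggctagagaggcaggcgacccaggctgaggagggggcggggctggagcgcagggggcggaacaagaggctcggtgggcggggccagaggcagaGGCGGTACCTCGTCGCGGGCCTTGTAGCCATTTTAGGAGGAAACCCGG
Asb4: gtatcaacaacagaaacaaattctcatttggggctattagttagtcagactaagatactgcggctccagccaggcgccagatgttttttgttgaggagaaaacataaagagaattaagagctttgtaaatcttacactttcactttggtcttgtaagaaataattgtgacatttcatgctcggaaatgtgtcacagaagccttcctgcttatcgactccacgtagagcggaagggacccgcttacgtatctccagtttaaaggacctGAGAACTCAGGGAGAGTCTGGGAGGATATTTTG

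Pfkm encodes the muscle phosphofructokinase that commits sugar to glycolysis, and its model began 26 bases before the RefSeq start. Mef2d, a muscle transcription factor, began 6 bases before it. Prkab2, a subunit of the energy sensor AMPK, began 2 bases after it, and Asb4, an ankyrin repeat protein of ubiquitin ligases, 17 bases after it. The letters TATAAA, searched on both strands, were in none of the 4 windows and in 13.6% of all 32851 RefSeq windows. GGGCGG, on both strands, was in the Mef2d and Prkab2 windows with 2 and 5 matches and in 35.7% of all windows. CANNTG, the E-box form, had 1 match in Pfkm and 2 in Asb4 and was in 72.3% of all windows. CCAAT, on both strands, had 1 match in Mef2d and was in 37.4% of all windows.

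Other starts recurred inside coding exons. The 60-base windows below, taken from GENCODE M21 transcripts in build GRCm38, hold the 30 coding bases before the start in lower case and the 30 from it on in capitals. Atp2a1, Mybpc2, Actn2 and 2610507B11Rik are shown because their starts lay on no annotated exon edge, and Hrc and Ndufa4 because theirs lay exactly on a splice acceptor, the first base of an inner exon. Genome positions of the outermost bases are chr7:126462153-126462811 (minus strand) for Atp2a1, chr7:44511917-44512119 (minus strand) for Mybpc2, chr13:12278945-12280456 (minus strand) for Actn2, chr11:78273710-78273769 (plus strand) for 2610507B11Rik, chr7:45337502-45337916 (plus strand) for Hrc and chr6:11905233-11906049 (minus strand) for Ndufa4. All but the 2610507B11Rik window span an intron.
Atp2a1: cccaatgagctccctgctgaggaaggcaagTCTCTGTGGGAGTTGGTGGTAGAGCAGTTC
Mybpc2: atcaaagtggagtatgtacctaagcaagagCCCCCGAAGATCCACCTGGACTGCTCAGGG
Actn2: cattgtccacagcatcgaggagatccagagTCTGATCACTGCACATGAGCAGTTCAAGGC
2610507B11Rik: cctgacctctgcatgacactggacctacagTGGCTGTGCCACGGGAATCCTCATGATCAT
Hrc: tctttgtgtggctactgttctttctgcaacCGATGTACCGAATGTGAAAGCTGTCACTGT
Ndufa4: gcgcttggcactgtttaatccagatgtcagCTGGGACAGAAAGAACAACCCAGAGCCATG

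In Atp2a1, the fast calcium pump of the sarcoplasmic reticulum, the start lay 5 bases into exon 3 of the parent transcript. In Mybpc2, fast myosin-binding protein C, it lay 2 bases into exon 16, and in Actn2, the α-actinin of the Z-disc, 2 bases into exon 15. The 2610507B11Rik start lay 58 bases into exon 20.

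Suffix models took a small part of each library. They held 82187 of 1349298 reads in replicate 1, or 6.09% with a 95% Wilson interval of 6.05 to 6.13, and 91806 of 1359923 reads in replicate 2, or 6.75% with an interval of 6.71 to 6.79. The mean was 6.42% ± 0.466 (SD, n = 2). The libraries differ by more than the counting intervals, which cover counting error only. Annotated transcripts held 66.1% and 63.5% of reads. The opposite class, prefix models that keep the 5' part, numbered 2025 and 1929 in annotated genes, so models lacking the 5' end were the commoner kind in both libraries. Most suffix models were thinly read: 65.2% and 64.2% rested on 1 read. Their median length was 2289 and 2378 bases with 8 exons. Weighted by reads, the median length was 2208 bases in replicate 1 and 1964 in replicate 2.

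What these models lacked was usually several exons and the start codon. A suffix model was the 3' part of an annotated transcript of its gene in 86.6% of cases in replicate 1 and 84.8% in replicate 2. For the others no longer annotated transcript of the same gene ended with the same junctions, and what they match was not looked up. Against the annotated parent, the median model lacked 6 exons in both libraries and 938 and 939 bases, 29.97% and 29.5% of the parent's length. A single exon was missing in 16.5% and 16.4% of models, and 11 or more in 28.7% and 28.4%. Exons were counted by number, so a model that begins in the parent's own first exon and reads through an intron also counts as lacking an exon. This was so in 2.57% and 2.54% of models, and in 13.6% and 13.7% of those counted as lacking a single exon. Where the parent is coding, the model began 3' of its start codon in 91.95% and 91.8% of models, which carried 82.4% and 81.5% of the reads of such models.

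Models started at annotated exon edges far more than elsewhere. A splice acceptor was the first base of 65.8% and 64.9% of models, an annotated transcript start of 20.7% and 20.4%, and another exon edge of 6.95% and 7.32%. No annotated edge was at the start of 6.55% of models in replicate 1 and 7.44% in replicate 2. Models of 1 read were no exception, with 93.8% and 92.9% at an annotated edge. The deposited start of such a model is therefore mostly a position the annotation already holds. No source used here says how the start coordinates were set.

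**Figure D1:**
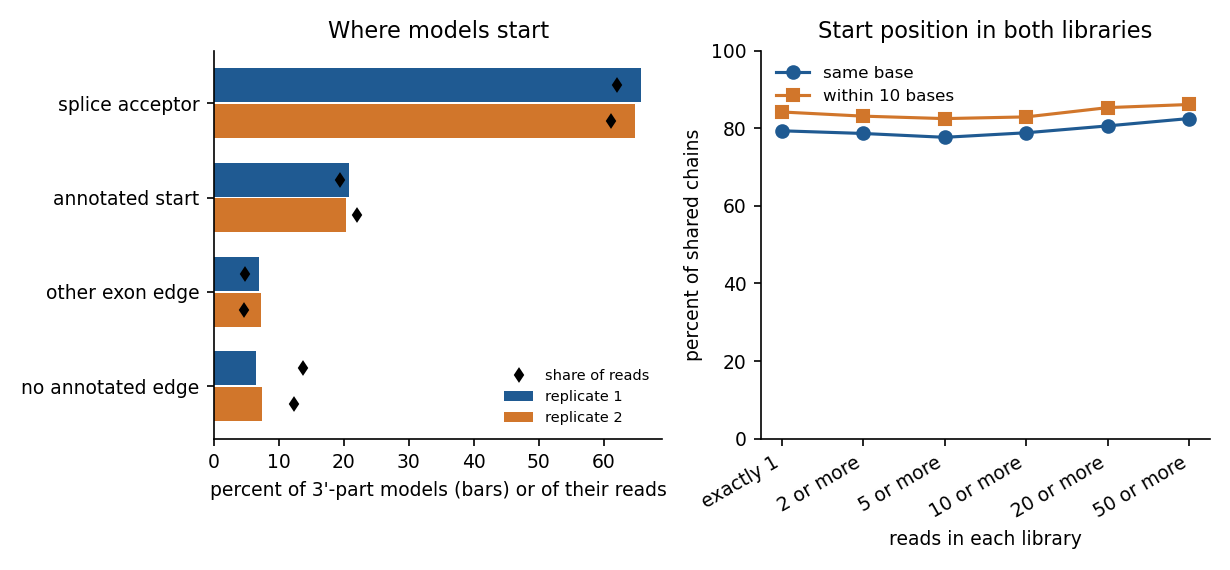
Left, the percent of suffix models (bars) and of their reads (diamonds) that start at each kind of position, by library; splice acceptors lead with 65.8% and 64.9% of models. Right, the percent of shared chains whose start is the same base or within 10 bases in both libraries, against the reads in each library; chains of exactly 1 read in each are at 79.4% for the same base, beside 82.5% for chains of 50 or more.

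Joined by gene and intron chain, the ordered set of splice junctions, 28333 suffix chains were found in either library and 7947 of them, 28.0%, were suffix in both. The shared chains carried 83.5% of suffix reads in each library. Another 20073 chains were in 1 library only, with a median of 1 read and at most 32 in replicate 1 and 26 in replicate 2. Of the 1843 chains with at least 10 reads summed, 95.9% were suffix in both. Of annotated spliced chains with as many reads, 99.9% were present in both, a measure that does not depend on the suffix label. A further 313 chains were suffix in 1 library and another class in the other. These include well-read chains: the 4-exon chain of Ndufa13, a subunit of respiratory complex I, had 856 and 1067 reads but was of the Both subtype, which matches either part, in replicate 1.

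Most shared chains also began at the same place. Of 1389 chains with at least 5 reads in each library, 1079 (77.7%) began at the same base and 1146 (82.5%) within 10 bases, in 486 genes. Of these 1146, 763 were at a splice acceptor, 267 at an annotated start, 43 at another edge, 15 at no edge, and 58 changed kind between libraries. The 2040 chains with 1 read in each began at the same base in 79.4% of cases, a share close to that of deeper chains, as the plot of start positions shows. Among the 46 chains with at least 5 reads in each library and no edge in either, 15 were within 10 bases and the median distance was 94 bases. At 50 or more reads in each library 6 of 10 such chains were within 10 bases and the median distance was 0. Just inside the limit were the 13-exon Pygm chain, the 8-exon Pkm chain and the 8-exon Tmem25 chain at 10 bases each. Just outside were the 5-exon Pkm chain at 11 bases and the 4-exon Ttn and 11-exon Sdha chains at 12.

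The recurring start on no annotated edge with the most reads was that of Pfkm. Its 22-exon chain had 3824 reads in replicate 1 and 3713 in replicate 2, which was 78.5% and 80.2% of all Pfkm reads. It began at base 98112034 of chromosome 15 in both libraries, 3568 bases from the nearest GENCODE start of the gene, and lacked the parent's first exon while keeping its start codon. The full annotated parent had 529 and 441 reads. For the 22-exon chain, the ratio of its share of library reads, replicate 2 over replicate 1, was 0.963 with a 95% interval of 0.921 to 1.01. This chain did not pass the test between libraries (Fisher's exact test, Benjamini-Hochberg adjusted p = 0.430).

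Other starts on no annotated edge recurred in muscle genes. Myh1, the IIx myosin heavy chain, had a 38-exon chain with 388 and 802 reads, starting 33 bases before exon 3 of its parent and keeping the start codon. The Atp2a1 start printed above belonged to a 21-exon chain with 250 and 214 reads. Ckm, muscle creatine kinase, had a 4-exon chain with 201 and 158 reads that began 277 bases before its next annotated exon. Pygm, muscle glycogen phosphorylase, had a 19-exon chain with 161 and 146 reads, beginning 567 bases before exon 2. The Mef2d chain had 50 and 58 reads. The other 9 chains had 5 to 34 reads in a library.

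Because shared edges make recurrence common, a chain was also set against its neighbours, the chains of the same gene with 1 exon more or 1 exon fewer. The neighbour rule was chosen after the values had been seen. It was applied to the 452 shared chains with at least 3 exons and 15 reads in each library. Of these, 61 (13.5%), in 59 genes, had at least 5 times the reads of both neighbours in both libraries. The rule did not ask that the start recur. Of the 61, 49 began within 10 bases in both libraries, 23 of these 49 at a splice acceptor, and 8 of the 61 began over 100 bases apart. Among the 61, the start codon was kept in 18 of 57 with a coding parent (31.6%), beside 55 of 375 (14.7%) of the other eligible chains. A RefSeq start of the gene lay in the model's first exon, or within 50 bases before it, in 11 of the 46 whose gene has a RefSeq window (23.9%), beside 15 of 320 (4.69%). Of the 59 with an annotated parent, 5 began in or before the parent's first exon, Prkab2, Tagap1 and Art1 among them. These 5 were among the 18 that kept the start codon (27.8%). Of the 10 with both such a RefSeq start and an annotated parent, 4 (40%) began there, so both shares include starts at the parent's own first exon. These shares are given as descriptions, since the rule used the reads.

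Genes of this kind fell into those where the chain was nearly the whole gene and those where it was a part. Atp5f1, the stalk subunit b of the ATP synthase, had a 7-exon chain with 933 and 1048 reads, 93.3% and 93.4% of the gene, with 0 reads for the chain 1 exon longer in either library. The start of this chain differed by 18 bases between libraries. Psmc2, an ATPase of the proteasome, had 114 and 103 reads on its 12-exon chain, 97.4% and 98.1% of the gene. Ethe1, a mitochondrial sulfur dioxygenase, had 65 and 55 reads on a 7-exon chain, 97.0% and 96.5% of the gene. In all of these the model kept the start codon and lacked the parent's first exon.

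Further genes of this kind were read less than Atp5f1. Serping1, the C1 inhibitor, had 171 and 148 reads on its leading chain, 85.9% and 86.5% of the gene. Prkab2 had 202 and 241 reads, 71.6% and 73.3%, on a chain that began 2 bases into the parent's first exon, read through to a first exon of 553 bases and kept the start codon. Bud23, a ribosomal RNA methyltransferase, had 49 and 48, 90.7% and 90.6%. Asb4 had 36 and 19 reads, 100% and 95% of a thinly read gene. In 23 of the 61 chains the chain held over 50% of the gene's reads in both libraries.

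Other chains of this kind lacked the start codon. Pink1, the kinase that marks damaged mitochondria, had 822 and 1074 reads on a 5-exon chain from a splice acceptor, while its neighbours had 19 and 18 reads with 1 exon more and 4 and 6 with 1 fewer. Actn2 had 565 and 829 reads on a 10-exon chain, beside 19 and 9 with 1 exon more. Hrc, a calcium-binding protein of the sarcoplasmic reticulum, had 707 and 2304 reads on a 4-exon chain of 255 bases that lacked 2156 bases of the parent. Tnnt1, slow troponin T, had 248 and 2389 reads on a 3-exon chain that began at an annotated start. The libraries agreed on the chain in each of these genes but not on its reads, with replicate 2 higher in all 4. The whole gene was also read more in replicate 2 for Hrc, with 843 and 2587 reads, and for Tnnt1, with 307 and 2599. Pink1 had 1929 and 2014 reads in all and Actn2 4051 and 3756. Some other chains of this kind without the start codon were lower in replicate 2, such as Cdh13 with 142 and 93 reads and Rbm20 with 69 and 29.

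**Figure D2:**
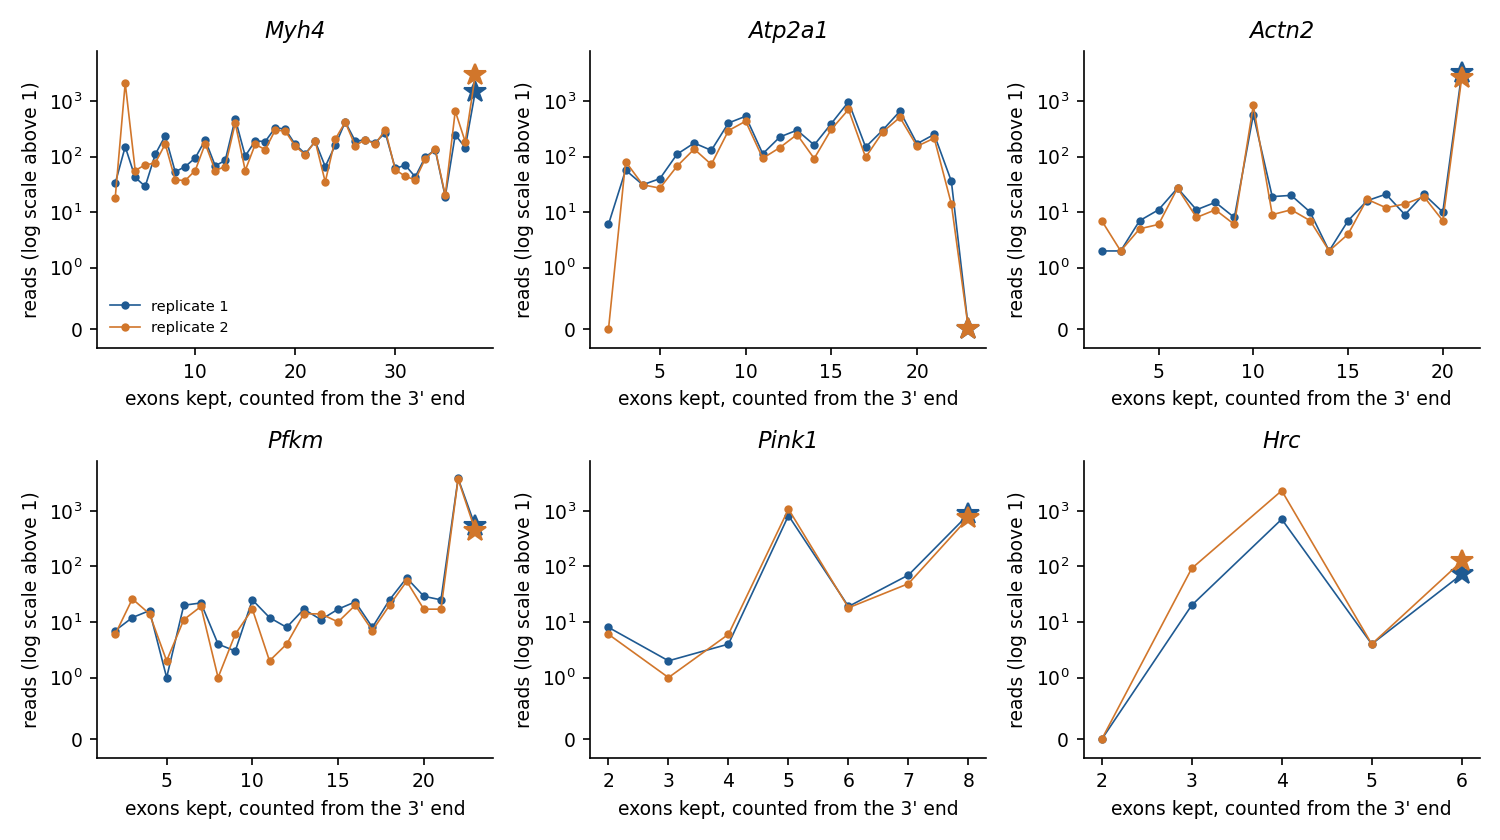
Reads (log scale above 1) of suffix models of 6 genes by the number of exons kept, counted from the 3' end, in each library; stars mark the full annotated transcript. Myh4 and Atp2a1 are read at nearly every step, while Pfkm, Pink1, Hrc and Actn2 stand out at 1 step, with 3824 and 3713 reads at 22 exons for Pfkm. In replicate 2 Myh4 also stands out at 3 exons, with 2106 reads beside 150 in replicate 1.

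In other genes reads were spread over many steps of the ladder of exons. Myh4, the IIb myosin heavy chain, was read at all 36 of its 36 steps in both libraries, with a median of 138 and 134 reads a step. In replicate 2 its 3-exon step stood out with 2106 reads, beside 150 in replicate 1. Atp2a1 was read at 20 of 21 steps, with medians of 170 and 136, and had 0 reads on the full annotated parent. Most of its reads were nonetheless on long chains: those with 1 exon more than its 21-exon chain had 192696 and 187052 reads. Ryr1, the calcium release channel, was read at 21 of 104 steps in both, all with 24 or fewer of the parent's 106 exons kept, and its largest step held 339 and 268 reads. Steps count only chains that are the 3' part of the 1 annotated parent shown for a gene. By that count the longer Ryr1 steps and the full parent had 0 reads. A 55-exon Ryr1 suffix chain of 7260 bases, the 3' part of no annotated transcript of the gene, had 7 and 8 reads. Pfkm was read at all 21 of its steps too, but its medians were 17 and 14 beside the 3824 and 3713 of the leading chain. These genes were picked for display after their values had been seen.

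The same contrast ran over the 149 genes that held 50 or more suffix reads per library. The leading chain was the same in 107 of them. It held over 50% of the gene's suffix reads in both libraries in 68 genes and under 20% in 36, with medians of 40.5% and 45.3%. Pgam2, muscle phosphoglycerate mutase, had all of its 197 and 187 suffix reads on 1 chain. Ndufa4, a subunit of cytochrome c oxidase, had 99.9% of its 782 and 786 reads on 1 chain. Pde4dip, a scaffold of the Golgi and centrosome, had 723 and 726 reads over 218 and 225 models, with 3.87% and 4.68% on the leading chain. Cacna1s, the voltage sensor of muscle, and the collagens Col1a1 and Col1a2 were spread in the same way, with leading chains of 5.03% to 6.77%.

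**Figure D3:**
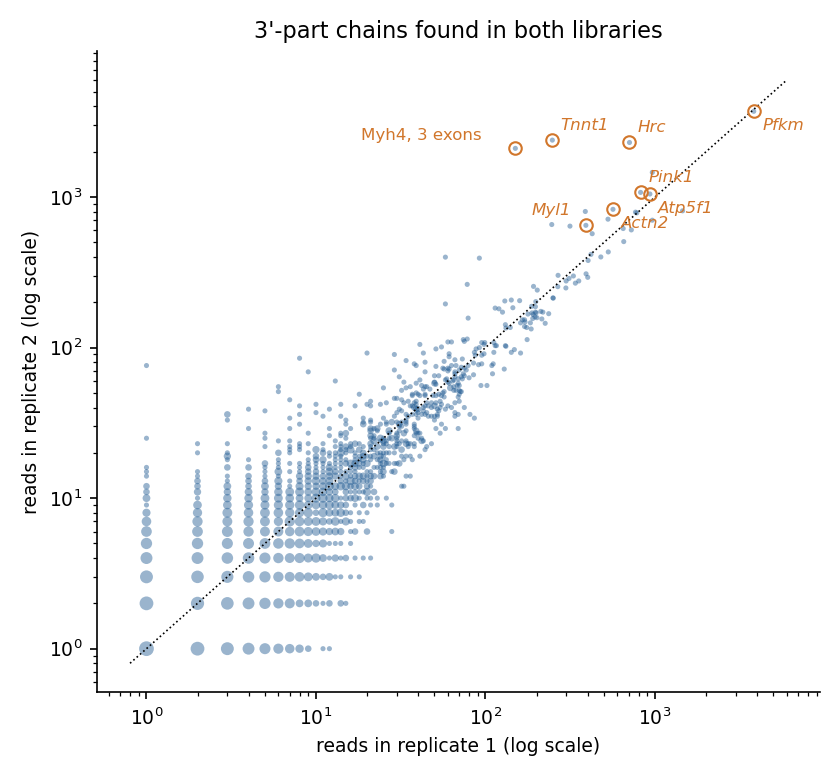
Reads of each of the 7947 shared suffix chains in replicate 1 against replicate 2, both on log scales, with point size rising with the number of chains and the dotted line marking equal reads. Pfkm lies on the line at 3824 and 3713 reads, and the 3-exon Myh4 chain lies far above it at 150 and 2106.

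A few abundant muscle genes supplied much of the class. The 20 genes with the most suffix reads held 42.3% of suffix reads in replicate 1 and 43.4% in replicate 2. Myh4 led with 5696 and 7645 reads, 44.8% and 46.9% of the gene's reads. Atp2a1 had 5224 and 4028, but these were 2.59% and 2.07% of a gene with 201493 and 194599 reads. Myh2, the IIa heavy chain, had 1383 and 1464 reads, 50.4% and 51.1%. Ryr1 had 1009 and 897 reads, 93.6% and 93.3% of the gene. Acta1, skeletal actin, had 2344 and 2054 reads at 3.13% and 3.00%. Among genes read 20 times or more per library, 71 were those in which it held over 50% in both, and 20 of the 71 had no read on any annotated transcript in either.

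The median suffix share of a gene's reads was higher in classes of genes with a longer longest annotated transcript. Over the 5025 genes read 20 times or more per library, the median share was 0% under 1000 bases in both libraries. It was 1.17% and 1.22% from 1000 to under 2000 bases, 2.56% and 2.53% from 2000 to under 3000, 4.35% and 3.70% from 3000 to under 5000, and 7.14% and 6.67% at 5000 or more. The share of pooled reads did not follow the same order: it was 6.45% and 6.74% from 2000 to under 3000 bases, 4.82% and 4.50% from 3000 to under 5000, and 21.8% at 5000 or more in each library. Across genes, which share their library and are not independent, Spearman's rho with length was 0.37 and 0.33 and Pearson's r with log10 length 0.28 and 0.25. With the number of exons in place of length rho was 0.58 and 0.54. By the definition of the class, a gene of few exons has few chains that can be suffix. With the gene's own reads rho was -0.0012 and 0.034. The share of a gene in replicate 1 and in replicate 2 had a Pearson's r of 0.90 and a rho of 0.73.

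**Figure D4:**
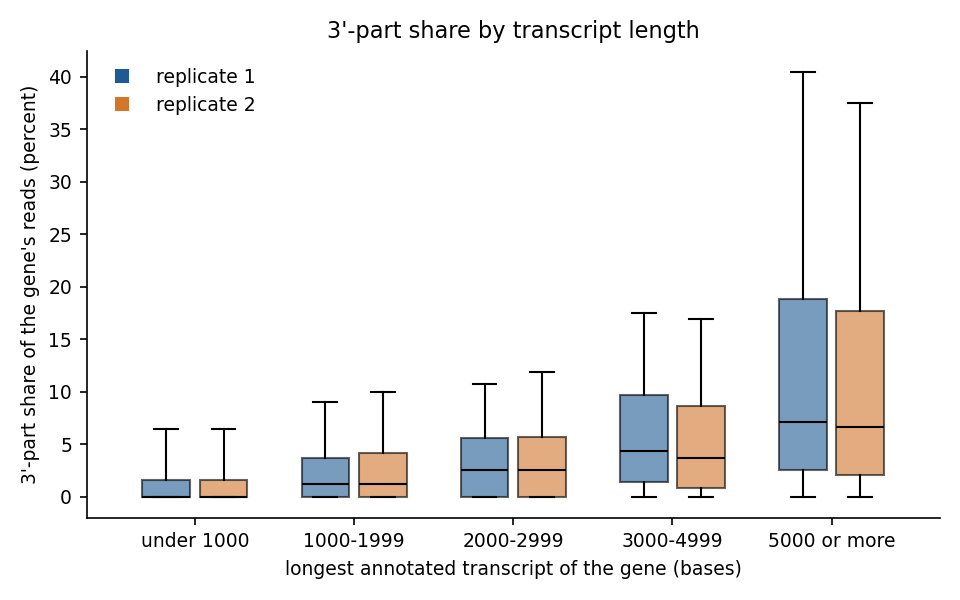
Suffix share of a gene's reads (percent) by the length of its longest annotated transcript (bases), for 5025 genes in each library; boxes span the quartiles, lines mark medians and whiskers the 10th to 90th percentiles. Medians run from 0% under 1000 bases to 7.14% and 6.67% at 5000 bases or more.

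Single genes were then compared between the libraries. Fisher's exact test of suffix against other reads of the gene called 45 of 4045 genes (1.11%) at an adjusted p under 0.05, 33 higher in replicate 2 (0.816%) and 12 lower (0.297%). These tests compare 2 libraries and say nothing of the spread between animals. Some calls come from the class label alone. Ndufa13 went from 0.346% to 98.7%, Atp5j, coupling factor 6 of the ATP synthase, from 3.57% to 80.5%, and Coro6, an actin-binding coronin, from 7.43% to 36.4%, because their main chain carried another class in replicate 1. With each chain counted as suffix in both libraries when it was suffix in either, a setting added after seeing the data, their shares were 99.1% and 98.7%, 76.95% and 80.9%, and 38.3% and 38.1%. That setting called 32 genes (0.791%), 27 higher (0.667%) and 5 lower (0.124%), 30 of them among the 45.

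Several genes were called under both settings. Trdn, triadin of the calcium release complex, rose from 16.8% to 37.9% of gene reads (adjusted p = 1.67e-20). Atp5b, the catalytic β subunit of the ATP synthase, rose from 23.4% to 35.2% (adjusted p = 1.16e-33). Tecr, an enzyme of fatty acid elongation, rose from 46.6% to 65.8% (adjusted p = 1.02e-05). Ckm fell from 4.07% to 2.56% (adjusted p = 2.03e-48) and Atp2a1 from 2.59% to 2.07% (adjusted p = 6.6e-25), small differences on very many reads. Pfkm, Ryr1 and Atp5f1 differed by 0.424, -0.259 and -0.965 percentage points and did not pass. All p-values here are Benjamini-Hochberg adjusted from Fisher's exact test.

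**Figure D5:**
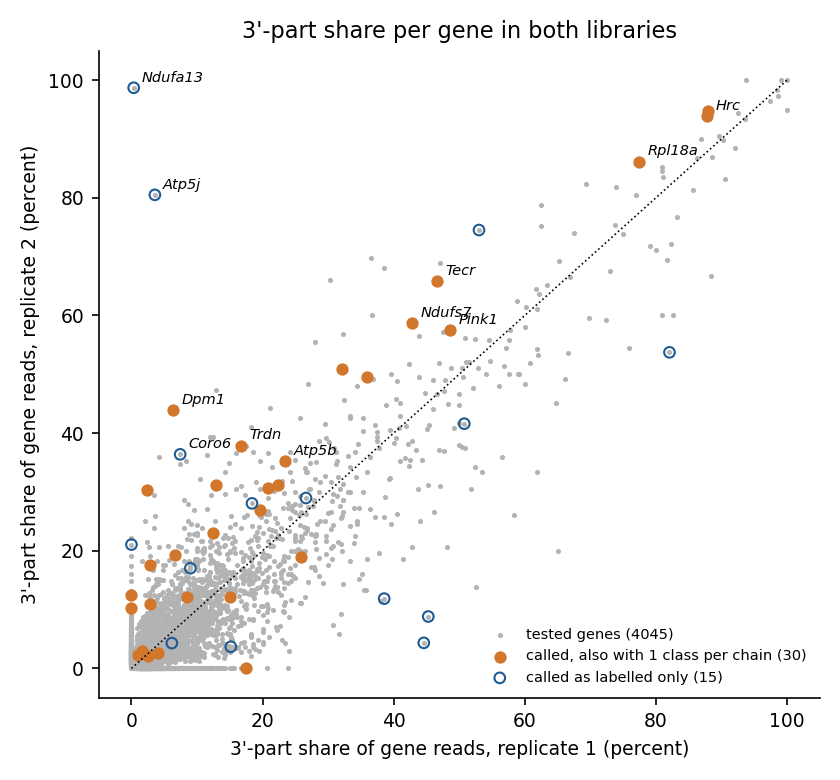
Suffix share of a gene's reads (percent) in replicate 1 against replicate 2 for the 4045 tested genes, with the dotted line marking equal shares. Filled points are the 30 genes called under both ways of assigning the class, and open points the 15 called only with the deposited labels, among them Ndufa13 and Atp5j near the left edge.

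Single chains differed between the libraries about as often as chains of any class. Of 1843 suffix chains with at least 10 reads summed, 158 (8.57%) were called, 105 higher in replicate 2 and 53 lower, beside 9.41% of all 14411 chains tested, of which 5.06% were higher and 4.35% lower. Against the reads of their own gene, 85 of 1843 (4.61%) were called, beside 4.36% of all chains. The 105 higher chains had a median length of 1108 bases and 4 exons, the 53 lower ones 1874 bases and 8 exons, and all 1843 had 2183 bases and 8 exons.

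The 8 largest rises were those of chains of Myh7, Myh4, Nexn, Tnnt1, Sh3bgr, Tnnt3, Hspa8 and Tnnc2. The 3-exon Myh4 chain of 460 bases went from 150 to 2106 reads, 13.9-fold with an interval of 11.8 to 16.4, and from 1.18% to 12.9% of the gene. The Tnnt1 chain rose 9.56-fold (8.39 to 10.9) in a gene that went from 307 to 2599 reads in all. Myh7, the slow heavy chain, had 1 and 76 reads on a 4-exon chain, a ratio of 75.4 with a counting interval of 13.2 to 431, while the gene went from 422 to 4414 reads. Against the reads of its own gene the Myh7 chain was not called (adjusted p = 0.201, Fisher's exact test), and the other 7 were. Tnnc2, fast troponin C, had 58 and 399 reads on a 3-exon chain, 6.83-fold (5.19 to 8.98). Nexn, an actin-binding protein of the Z-disc, had 8 and 85 reads, 10.5-fold (5.18 to 21.4). The Sh3bgr chain rose 9.10-fold (4.01 to 20.6), the Tnnt3 chain 8.43-fold (3.71 to 19.2) and the chain of Hspa8, a constitutive chaperone, 7.61-fold (3.85 to 15.04).

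The lowest ratios were milder. The 2-exon chain of Fabp4, the fatty acid carrier of adipocytes, had 86 and 34 reads, giving a ratio of 0.392 (0.264 to 0.582). The whole gene went from 169 to 54 reads, so the chain was 50.9% and 63.0% of it. The 5 adipocyte markers together went from 1351 to 91 reads and the 5 Schwann cell markers from 840 to 120, and their part in the chain differences was not tested. The 7 skeletal muscle markers held 26.3% and 25.3% of reads, and the 3 liver markers had 0 reads. In bulk tissue, fewer cells of a type and less RNA per cell cannot be told apart. The 4-exon chain of Rbm20, a splicing regulator of titin, had 69 and 29 reads, and the 12-exon chain of Actn3, fast α-actinin, 81 and 36. None of these 3 chains was called against the reads of its own gene, with adjusted p of 0.779 for Fabp4, 0.128 for Rbm20 and 0.0946 for Actn3 by Fisher's exact test. By the same test the 17-exon Myh2 chain, with 48 and 23 reads, was called (adjusted p = 0.0416). The 22-exon Atp2a1 chain, with 36 and 14 reads and the lowest of these ratios at 0.386, was not (adjusted p = 0.0611). Over all 1843 suffix chains, 33 were called lower against the reads of their gene.

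Genes with textbook inner promoters were looked at as a list. Of 24 such genes, of which Myl1 and Aldoa were also among the 20 with the most suffix reads, 22 had a suffix read, 15 could be tested, and 4 had a higher share in replicate 2 and 0 a lower one, beside 0.816% higher and 0.297% lower over all genes. The 4 were Myl1 (8.51% and 12.1%), Tpm1, a tropomyosin (1.67% and 2.91%), Ttn, titin (53.0% and 74.5%), and Plec, the cytolinker plectin (12.4% and 23.1%). Read depth, which sets how small a difference the test can call, was not matched between list and background. In replicate 1 the 4 genes had 330 (Plec) to 18006 (Tpm1) reads. The median gene read 20 times or more per library had 51 to 82 there, by class of transcript length. With the class fixed per chain the count was again 4 higher and 0 lower, but the Ttn call was lost (adjusted p = 0.549, Fisher's exact test) and Aldoa, muscle aldolase, was called at 5.45% and 6.91% (adjusted p = 4.53e-05). A 2-exon Aldoa chain with 216 and 219 reads was suffix in replicate 1 and of the Both subtype in replicate 2. Recurring starts were found in 6 of the 24 genes, with 21 chains.

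Within these genes, Myl1 had a 6-exon chain with 251 and 213 reads, 2.89% and 2.70% of the gene, which began within 4 bases of an annotated start, the start of its parent. The 4-exon Myl1 chain, which lacked the start codon, had 391 and 649 reads. Aldoa had 267 and 254 reads on a 7-exon chain and 176 and 113 on an 8-exon chain, both from the same annotated start. The 6-exon Tpm1 chain began at an annotated start with 58 and 195 reads. The leading Fhl1, Rtn2 and Speg chains began at splice acceptors with 25 and 24, 19 and 13, and 12 and 16 reads. Of the others, Gnas had 30 and 34 suffix reads and Ank1 29 and 18, Pde4d 4 and 11, and Tpm3, Asph, Dmd, Rtn4, Mylk, Agrn, Ppargc1a, Rtn1, Ptk2, Camk2a and Mitf had 0 to 8 in a library.

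Other pathways were described by their lists, to be read beside the 0.816% of all tested genes that were higher in replicate 2 and the 0.297% that were lower. Read depth was not matched here either, and the test can call smaller differences in genes with more reads. Of 12 thick filament genes, 2 had a higher and 1 a lower suffix share in replicate 2, with pooled shares of 31.6% and 32.5%. With the class fixed per chain these were 0 and 1, since Myh1 (adjusted p = 0.0898, Fisher's exact test) and Ttn lost their calls and Mybpc2 kept its own. Of 22 thin filament and Z-disc genes, 7 were higher and 0 lower, with pooled shares of 4.72% and 6.94%, and 6 were higher with the class fixed, without Synpo2. Of 14 calcium handling genes, 2 were higher and 2 lower, at 3.56% and 3.98%. None of 15 glycolytic genes was called by Fisher's exact test with the deposited labels, at 12.7% and 13.4%, and 1, Aldoa, was higher with the class fixed. Of 14 tested oxidative phosphorylation genes, 1 was higher, as was 1 of 15 citric acid cycle and fatty acid genes, 1 of 11 costamere genes and 1 of 10 cytosolic ribosome genes. None of 9 elongation factor genes was called. In the last 5 of these lists and in the calcium handling genes the calls were the same with the class fixed. The median difference over all tested genes was -0.147 percentage points.

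The longest suffix models with at least 5 reads in each library reached 10032 and 11234 bases in Xirp2, an actin-binding protein of striated muscle, with 120 and 181 reads. Its start differed by 1202 bases between libraries. The 23-exon chain of Sptb, β-spectrin, spanned 7932 bases with 6 and 8 reads from a splice acceptor in both. The 42-exon chain of Dync1h1, the dynein heavy chain, spanned 6953 bases with 6 and 5 reads and lacked 7389 bases of its parent.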

How the data were processed

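Per the labels, 2 long-read RNA libraries were made from total RNA. The deposited tables hold raw counts: whole long reads that the authors gave to each model, not normalized. Per the file headers the models come from TALON, and per the labels the build is mm10 (GRCm38). No source used here names the aligner or the read filters. Exon coordinates are those deposited. The GENCODE M21 annotation and RefSeq windows were used as references.

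Models were joined by gene and intron chain. A chain needed 10 reads summed to be tested and a gene 20 reads in each library. Two-sided Fisher's exact tests were adjusted by Benjamini-Hochberg over all chains or genes at 0.05. Shares carry 95% Wilson intervals, which cover counting error only. With 2 libraries in 1 group, edgeR's quasi-likelihood test has no residual degrees of freedom. edgeR 4.0.16 exact tests with a fixed dispersion of 0.01 and DESeq2 1.42.0 size factors served as alternatives. Python 3.11.15, SciPy 1.17.1 and R 4.3.3 were used, and the tests were tested on simulated data. Replicates are numbered by the labels. P-values measure only the spread of counting between these libraries.

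The members and gene lists were chosen with earlier results of these data known. Genes were named by fixed ranks: the highest suffix reads, the most read recurring starts, the largest share and chain differences, list members and the longest models. The neighbour rule and the ladder genes were chosen after values were seen.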

Additional observations from a re-analysis of the deposited data

Results flagged for a closer look

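Suffix models outside annotated mouse genes were not part of the comparisons above. They held 17 reads in replicate 1 and 82 in replicate 2, on 10 and 19 models, above the limit of 3 that a count of 0 allows, and 0 of these reads were on spike-in sequences.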

How the results depend on the processing

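The suffix share of reads was 7.14% of spliced models' reads, beside 6.42% of all reads, and lay between 6.09% and 6.75% with either library left out. Chains that were suffix in both libraries rose from 28.0% to 69.3% with at least 2 reads summed and 95.9% with at least 10. The 158 called chains became 85 with no filter on low counts, 85 against the reads of the gene, and 83 by edgeR's exact test with TMM scaling or with DESeq2 size factors, where 72 were higher and 11 lower beside 105 and 53. These 83 were of 1843 suffix chains, beside 774 of 14411 chains of all classes called by edgeR's exact test. The 774 were not split by direction. The rho of share with length was 0.56 with exon number in place of length and lay between 0.33 and 0.37 with either library left out. The 1146 recurring starts became 2939, 608 and 326 with at least 2, 10 and 20 reads in each library, and, in settings chosen after seeing the data, 383 without splice acceptors and 15 at no annotated edge. The other alternatives kept each result within 1.5 times its count or within the spread between libraries. Joining by deposited transcript identifier gave no value, because no chain shared an identifier. No paired analysis was possible because there is 1 group. Depth limits chains of 1 read, 65.2% and 64.2% of models.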
